A study of Homo sapiens with 6 samples.

Results

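Simple keratins and desmosome proteins were followed as 10 genes in PANC-1 cells with the SMAD4 gene knocked out, given back 1 of 2 forms of SMAD4. The genes were taken by symbol: the keratins KRT7, KRT8, KRT18, KRT19 and KRT80, the desmosomal cadherins DSG2 and DSC2, and the plaque proteins DSP, PKP2 and PKP3. All 10 were among the 60835 distinct symbols of the count table and among the 15911 genes with enough counts to be tested. PANC-1 is an established line of human pancreatic epithelioid carcinoma. In every library the cells lacked their own intact SMAD4, the common partner of the SMAD proteins in TGF-β and BMP signalling, and had been transfected with SMAD4 R272K, in which an arginine is replaced by lysine, or with wild-type (WT) SMAD4. There were 3 libraries of polyadenylated RNA per group, made on day 3. The sources used here do not say whether the knockout line is 1 clone or whether replicates were separate cultures. All p-values therefore rest on the spread among these libraries alone, which may be technical.

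Keratins are intermediate filament proteins that assemble from equal parts of a type I and a type II chain. In simple epithelia, including pancreatic ducts, the main couple is type II KRT8 with type I KRT18, joined by type II KRT7 and type I KRT19. Desmosomes anchor these filaments at cell contacts: the cadherins bridge the gap between cells, armadillo proteins such as plakophilins sit in the plaque, and desmoplakin ties the plaque to the filaments. Keratins and desmosomes are marks of the epithelial state, which TGF-β signalling through SMADs can weaken during an epithelial-mesenchymal transition.

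Library totals lay between 15148435 and 15406781 counts with R272K SMAD4 and between 14776148 and 17706201 counts with WT SMAD4. SMAD4 had 40.6, 45.6 and 43.6 CPM (each gene's counts as a rate per 1000000 of the scaled library total) with R272K, against 83.4, 93.6 and 89.0 CPM with WT. The log2 fold change was -1.03 (SE 0.075, edgeR adjusted p = 6.28e-06), so the amount of SMAD4 transcript and the substitution cannot be told apart in any comparison between these groups. WT replicate 1 stood apart from the other libraries. Its log2 ratio to the other WT libraries declined with gene length. Over the 15911 genes, which are no independent replicates, Spearman's rho was -0.409, against -0.114 to 0.315 for the other 5 libraries within their groups. Fold changes of the 10 genes are therefore given with and without it. Pancreatic duct markers were present in part, and 5 of the 7 listed had enough counts to be tested. SOX9 averaged 272.3 CPM with R272K and 230 CPM with WT. EPCAM averaged 4.78 CPM with R272K and 3.65 CPM with WT, and CDH1 6.47 CPM with R272K and 2.59 CPM with WT. The 6 acinar markers summed to at most 0.591 CPM and the 5 leukocyte markers to at most 0.406 CPM in any library. The 6 fibroblast and stellate markers summed to 1.73 to 2.87 CPM with R272K and 1.15 to 2.49 CPM with WT. The 5 endocrine markers summed to at most 0.263 CPM, with SST at 0 in all libraries. The 4 endothelial markers summed to 5.34 to 6.39 CPM with R272K and 5.08 to 7.6 CPM with WT. Most of that was KDR, the only 1 with enough counts to be tested, at 5.24 CPM with R272K and 5.74 CPM with WT on average.

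Most of these transcripts stood somewhat higher with R272K SMAD4, but none passed the test on all 6 libraries. KRT8 had the largest difference, 1.25-fold higher on average, followed by DSC2 at 1.21-fold and PKP2 at 1.20-fold. DSP stood 1.15-fold higher, KRT18, KRT80, DSG2 and PKP3 stood 1.066-fold to 1.078-fold higher, and KRT19 and KRT7 had fitted ratios below 1. In bulk RNA, fewer cells of a kind and less RNA per cell cannot be told apart. By edgeR's quasi-likelihood test with Benjamini-Hochberg adjustment over all genes, 0 of 10 were called at an adjusted p below 0.05, where 1.21% of all tested genes were called and 0.685% were called higher. At an unadjusted p under 0.05 there were 4 of 10 (KRT8, PKP2, DSC2 and DSP), against 14.3% of all tested genes. DESeq2 called 1 of 10, KRT8 (adjusted p = 0.011; 1.09% of genes called higher), and limma-voom 0. The log2 fold change was positive for 8 of 10, with a median of 0.11. Over all genes tested 49.7% were positive, and the median was 0.00. In 5 of 10 every R272K library lay above every WT library, where this held for 10.9% of tested genes. In none of the 10 did every R272K library lie below, and the share of all tested genes in that direction was not counted. These are counts over a chosen set of genes, and no test was made over the set.

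**Figure D1:**
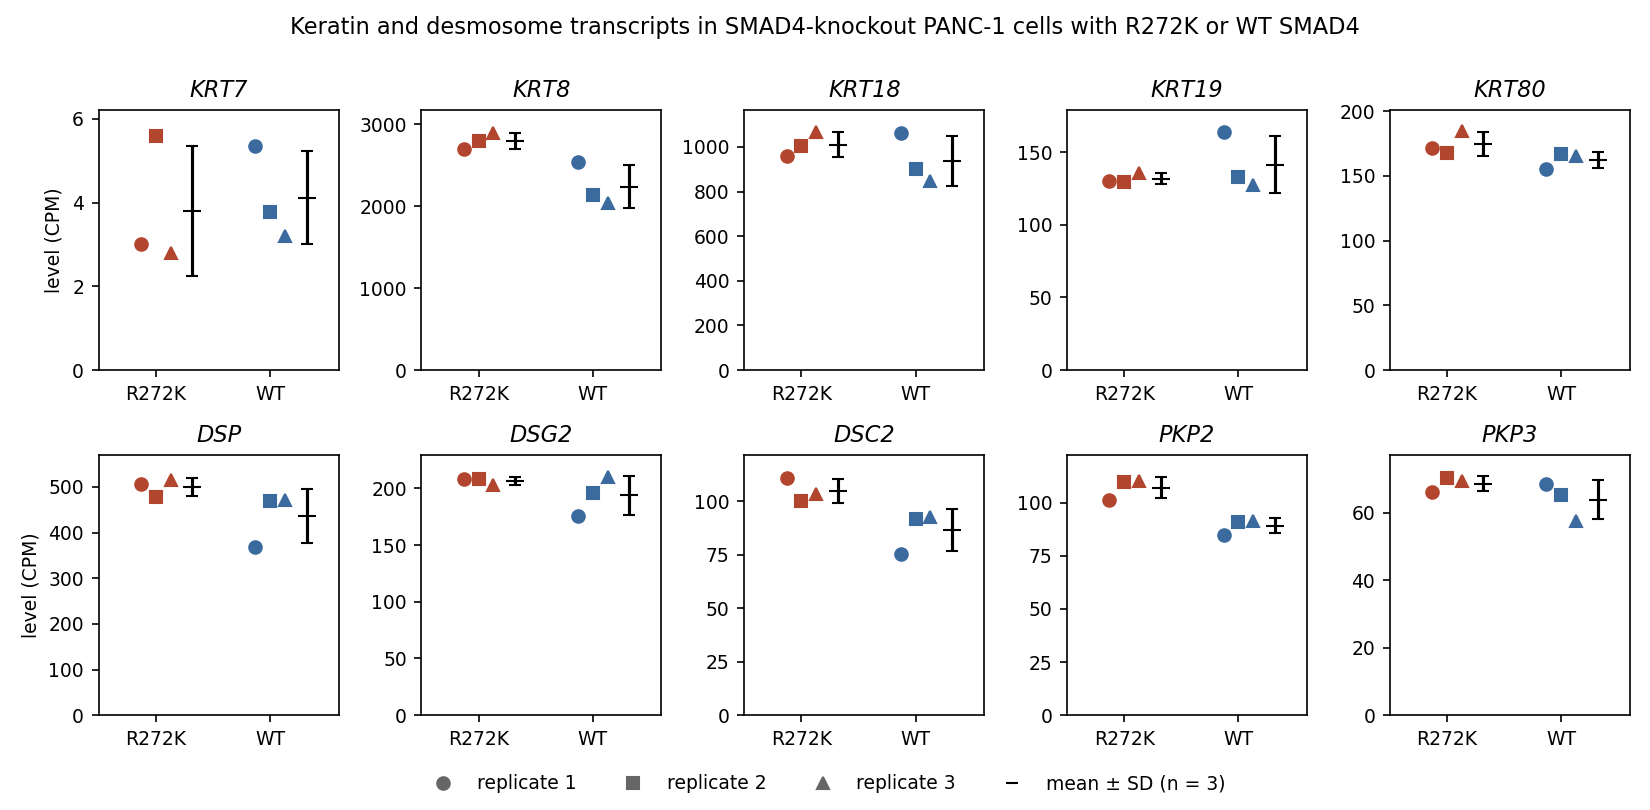
Level of each of the 10 genes in CPM (y axis, from 0) in the 3 R272K libraries (red) and the 3 WT libraries (blue), with symbols for replicate numbers and the mean ± SD beside each group. For KRT8, KRT80, DSP, DSC2 and PKP2 all R272K points lie above all WT points; WT replicate 1 is the highest WT library for KRT7, KRT8, KRT18, KRT19 and PKP3 and the lowest for KRT80, DSP, DSG2, DSC2 and PKP2.

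Leaving out WT replicate 1 changed the calls. Without it 4 of 10 were called higher, KRT8, KRT18, PKP2 and DSC2, and 0 lower, where 2.94% of tested genes were called higher. With a smoothed offset that took out the dependence of each library on gene length, 3 of 10 were called higher, KRT8, PKP2 and DSC2, where 2.00% of tested genes were called higher. Within these genes WT replicate 1 followed length closely. Set against the mean of WT replicates 2 and 3, its log2 ratio was 0.62 for KRT7, 0.33 for KRT19, 0.28 for KRT18 and for KRT8, and 0.16 for PKP3, all shorter than the median tested gene. It was -0.09 for KRT80, -0.10 for PKP2, -0.20 for DSG2, -0.30 for DSC2 and -0.35 for DSP, all longer than the median. In that library the 5 shorter genes were high and the 5 longer ones low. Beyond these fits, the part of the trend in each difference between groups was not tested.

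**Figure D2:**
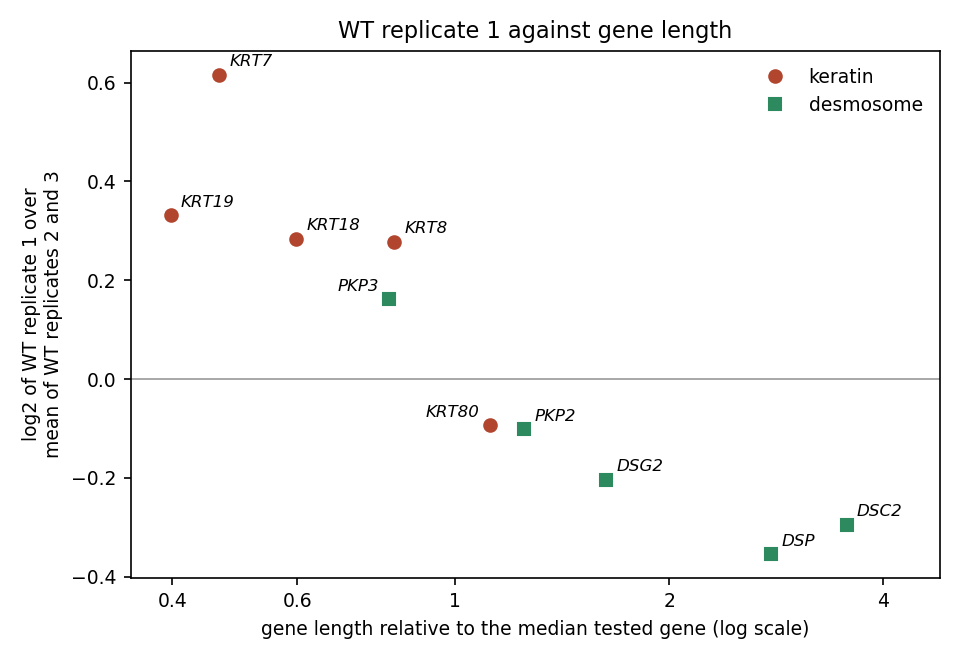
Log2 ratio of CPM in WT replicate 1 to the mean of WT replicates 2 and 3 (y axis) against gene length relative to the median tested gene (x axis, log scale), for the 5 keratins (red circles) and 5 desmosome genes (green squares). The ratio runs from 0.62 for KRT7 to -0.35 for DSP, with the 5 genes shorter than the median above 0 and the 5 longer ones below it.

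KRT8 (ENSG00000170421, chromosome 12, 52897187 to 52949954, minus strand, GRCh38) was the most abundant of the 10, at rank 22 of the 15911 tested genes by mean TPM (a level scaled by transcript length, per 1000000 transcripts). It had 2699.9, 2792 and 2895 CPM in R272K replicates 1 to 3, against 2532, 2135 and 2043 CPM in WT replicates 1 to 3. Every R272K library was above every WT library, and WT replicate 1 was the WT library nearest to them. The mean was 2795 ± 97.4 CPM with R272K and 2237 ± 260.2 CPM with WT (n = 3 each, SD). The log2 fold change was 0.32 (95% interval 0.16 to 0.49, edgeR adjusted p = 0.0661). Without WT replicate 1 it was 0.42 (adjusted p = 4.6e-11), and with the length trend removed 0.35 (adjusted p = 0.000432). The SE was 0.077 on all 6 libraries and 0.034 without WT replicate 1. The test had 13.2 and 33.18 degrees of freedom, which include information that edgeR shares across genes. When any 1 of the other 5 libraries was left out the log2 fold change lay between 0.26 and 0.35 and was not called.

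KRT8 has many processed copies in the genome, and the part that reads shared with them have in the KRT8 counts was not tested. The table had 51 rows named as KRT8 pseudogenes, 28 of them with counts, which together came to 0.808 to 1.57% of the KRT8 counts of a library. KRT8P12, the tested copy with most counts, was lower in every R272K library than in any WT library. It had 14.6, 15.9 and 14.5 CPM with R272K, against 19.0, 18.7 and 20.2 CPM with WT. Its log2 fold change was -0.36 (adjusted p = 0.0928; without WT replicate 1, adjusted p = 0.0282). KRT8P12 is identical to the KRT8 transcript at 86.1% of 1461 aligned positions, with a longest identical run of 53 bases, whereas KRT8P3, at 97.1% of 1449 positions, has a run of 129 bases. KRT8P3 had 3.15, 5.46 and 4.89 CPM with R272K, against 4.39, 2.64 and 3.08 CPM with WT, and the groups overlapped. Of the 4 tested copies KRT8P33, identical at 93.8% of 1452 positions, had the longest identical run, 133 bases. Its levels were 1.77, 2.26 and 1.30 CPM with R272K, against 1.25, 1.35 and 3.08 CPM with WT, also with overlap.

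KRT18 (ENSG00000111057, chromosome 12, 52948871 to 52952906, plus strand), the type I partner of KRT8, lies next to it. It had 960, 1004 and 1068 CPM with R272K, against 1065, 899 and 849 CPM with WT. WT replicate 1 was within the R272K range, and the other WT libraries were below it. The mean was 1011 ± 54.7 CPM with R272K and 938 ± 112.8 CPM with WT (n = 3 each, SD), which gave a log2 ratio of 0.11 (95% interval -0.07 to 0.28, adjusted p = 0.583). Without WT replicate 1 it was 0.21 (adjusted p = 0.000919), but 0.04 without WT replicate 3 (adjusted p = 0.852), 0.07 without R272K replicate 3 (adjusted p = 0.86) and 0.15 with the length trend removed (adjusted p = 0.112). KRT18 was called in no fit but the first of these. Annotated exons of KRT8 and KRT18 share 525 bases on opposite strands, 7.63% of the exonic bases of KRT8 and 16.31% of those of KRT18, and the strand setting of the counting is not stated, so reads there cannot be told apart. The 67 rows named as KRT18 pseudogenes held 0.236 to 0.478% as many counts as KRT18.

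KRT19 (ENSG00000171345, chromosome 17, 41523617 to 41528308), is the small type I keratin of ducts. It had 130.4, 129 and 136 CPM with R272K, against 164, 133 and 127 CPM with WT. Only WT replicate 1 stood outside a narrow band shared by both groups. On the log2 scale the ratio of R272K to WT was -0.10 (95% interval -0.29 to 0.08, adjusted p = 0.633), 0.02 without WT replicate 1 (adjusted p = 0.907) and -0.18 without WT replicate 3 (adjusted p = 0.292).

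KRT7 (ENSG00000135480, chromosome 12, 52232520 to 52252186), the other type II keratin usual in ducts, had the fewest counts of the 10. Its counts were 46, 84 and 43 with R272K and 94, 56 and 49 with WT. That is 3.02, 5.59 and 2.80 CPM with R272K, against 5.36, 3.79 and 3.21 CPM with WT. In each group 1 library was well above the others, and the interval of the log2 fold change ran from -0.71 to 0.45 around -0.13 (adjusted p = 0.866). The sign depended on single libraries: the value was 0.12 with WT replicate 1 left out, 0.01 or 0.05 when R272K replicate 1 or 3 was dropped, but -0.51 when R272K replicate 2 was, with adjusted p of 0.544 or more in each. The antisense row KRT7-AS, which shares 282 exonic bases with KRT7, held 4.76 to 22.4% as many counts.

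KRT80 (ENSG00000167767, chromosome 12, 52168996 to 52192014), a type II keratin outside the usual ductal set, varied little. It had 172, 168 and 185 CPM with R272K, against 156, 167 and 165 CPM with WT. The groups did not overlap, but their nearest libraries were only 168 and 167 CPM. Its log2 ratio was 0.11 (95% interval -0.03 to 0.24, adjusted p = 0.488). It was 0.08 without WT replicate 1 and 0.06 without R272K replicate 3.

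The keratins differed between groups in sum and in proportions. Summed TPM of the 5 keratins was 4843, 4981 and 5327 with R272K, against 4556, 4168 and 4066 with WT. KRT8 made up 61.1, 61.1 and 60.6% of that sum with R272K, against 56.9, 56.6 and 56.8% with WT. KRT18 made up 29.8, 30.1 and 30.6% with R272K, against 32.8, 32.7 and 32.4% with WT, and KRT19 6.08, 5.83 and 5.86% with R272K, against 7.59, 7.27 and 7.30% with WT. The groups were apart in each of these shares, by more than libraries differed within a group, and WT replicate 1 lay with the other WT libraries. KRT7 and KRT80 together filled the rest, and their shares overlapped between groups. Shares of 1 sum depend on each other, and KRT8 is the largest part. The KRT18 share was lower with R272K although its mean TPM was 1525, against 1390 with WT. Mean TPM of KRT19 was 299 with R272K and 315 with WT. The shares and the ratios that follow are therefore not separate differences.

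The TPM ratio of KRT8 to KRT18 was 2.05, 2.03 and 1.98 with R272K, against 1.74, 1.73 and 1.75 with WT. Its mean was 2.02 ± 0.039 with R272K and 1.74 ± 0.012 with WT (SD, n = 3 each). Type II over type I chains, summed over the 5 keratins, came to 1.77 ± 0.026 with R272K and 1.501 ± 0.022 with WT. The difference of 0.27 lay between 0.26 and 0.28 when any 1 library was left out, and over all detected keratins the ratio averaged 1.73 with R272K and 1.46 with WT. No test was made of ratios of chosen genes, and with 3 libraries against 3 an exact two-sided permutation test can go no lower than p = 0.1. These are transcript levels and say nothing of the amount of protein.

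**Figure D3:**
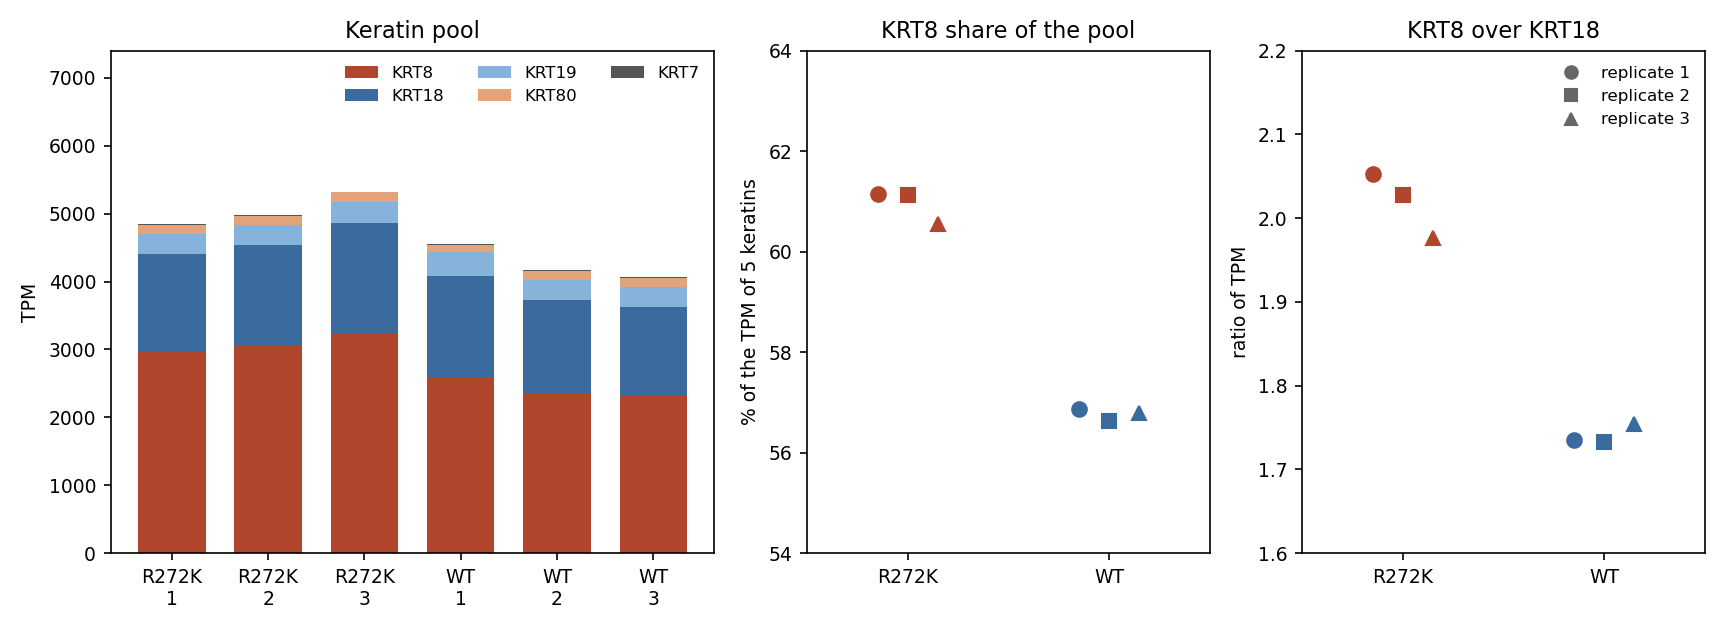
TPM of the 5 keratins stacked by library (left), the share of KRT8 in that sum in percent (middle, axis from 54 to 64%) and the ratio of KRT8 to KRT18 TPM (right, axis from 1.6 to 2.2), with R272K libraries in red and WT libraries in blue in the point plots. KRT8 holds 60.6 to 61.1% of the pool in R272K libraries and 56.6 to 56.9% in WT libraries, with WT replicate 1 among the other WT libraries.

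Of the desmosomal cadherins, which meet their counterparts across the gap between cells, DSC2 stood higher with R272K and DSG2 did not separate. DSC2 (ENSG00000134755, chromosome 18, 31058840 to 31102522), desmocollin 2, had 110.8, 99.8 and 103 CPM with R272K, against 75.1, 91.5 and 92.8 CPM with WT. The groups did not overlap, and WT replicate 1 was the lowest library. The log2 fold change was 0.28 (95% interval 0.09 to 0.46, adjusted p = 0.151), 0.18 without WT replicate 1 (adjusted p = 0.0384) and 0.20 with the length trend removed (adjusted p = 0.0499).

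DSG2 (ENSG00000046604, chromosome 18, 31498177 to 31549008), desmoglein 2, had 208, 208 and 203 CPM with R272K, against 176, 195 and 209.9 CPM with WT. WT replicate 3 was the highest of the 6 libraries. Its log2 ratio was 0.09 (95% interval -0.06 to 0.24, adjusted p = 0.587). It was 0.03 without WT replicate 1 and 0.15 without WT replicate 3, with no call in either. On the TPM scale DSG2 exceeded DSC2 4.09, 4.53 and 4.27 times with R272K, against 5.09, 4.64 and 4.91 times with WT.

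Among the plaque proteins, PKP2 and DSP stood higher in every R272K library and PKP3 did not separate. PKP2 (ENSG00000057294, chromosome 12, 32790745 to 32896777), plakophilin 2, had 101.3, 109.9 and 109.96 CPM with R272K, against 84.9, 90.9 and 91.3 CPM with WT. The groups were apart by more than the spread within either. The mean was 107 ± 4.98 CPM with R272K and 89.0 ± 3.55 CPM with WT (n = 3 each, SD), which gave a log2 ratio of 0.27 (95% interval 0.12 to 0.41, adjusted p = 0.0815). It was 0.23 without WT replicate 1 (adjusted p = 0.00538) and 0.26 with the length trend removed (adjusted p = 0.0117).

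PKP3 (ENSG00000184363, chromosome 11, 392614 to 404908), plakophilin 3, had 66.4, 70.5 and 69.4 CPM with R272K, against 68.7, 65.4 and 57.5 CPM with WT. The groups overlapped. Its log2 ratio was 0.10 (95% interval -0.06 to 0.27, adjusted p = 0.576). It was 0.16 without WT replicate 1 (adjusted p = 0.133) and 0.03 without WT replicate 3 (adjusted p = 0.868). In TPM both plakophilins stood close to each other, PKP2 at 77.3 ± 3.92 with R272K and 63.5 ± 5.73 with WT, and PKP3 at 76.9 ± 2.53 with R272K and 70.3 ± 3.82 with WT (SD, n = 3 each).

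DSP (ENSG00000096696, chromosome 6, 7541617 to 7586714), desmoplakin, had 507, 477 and 516 CPM with R272K, against 368, 469.8 and 470.3 CPM with WT. WT replicate 1 lay far below all others, and R272K replicate 2 was only just above the other WT libraries. For DSP the log2 ratio was 0.20 (95% interval 0.01 to 0.39, adjusted p = 0.319), and 0.09 without WT replicate 1 (adjusted p = 0.203).

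**Figure D4:**
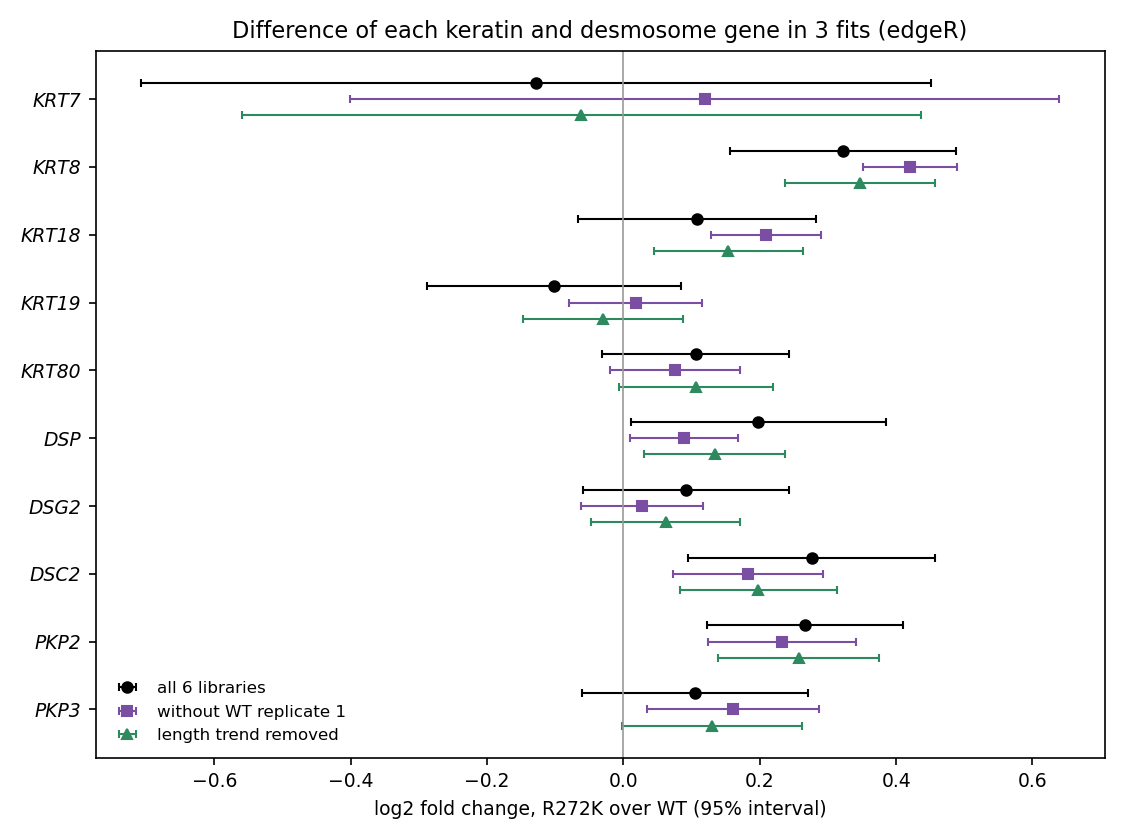
Log2 fold change of R272K over WT for each gene (x axis) with its 95% interval, from edgeR on all 6 libraries (black circles), without WT replicate 1 (purple squares) and with each library's length trend removed (green triangles). KRT8 is at 0.32, 0.42 and 0.35 in the 3 fits and PKP2 at 0.27, 0.23 and 0.26, while KRT19 lies at -0.10, 0.02 and -0.03.

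Ordered by mean TPM, the genes ran from KRT8 (3077 with R272K and 2420 with WT) and KRT18 (1525 with R272K and 1390 with WT) to KRT19 (299 with R272K and 315 with WT). DSP (162 with R272K and 140 with WT), KRT80 (141 with R272K and 129.9 with WT) and DSG2 (114 with R272K and 106 with WT) followed, neighbours whose ranges met in at least 1 group. PKP2 and PKP3 came next and overlapped, then DSC2 (26.6 with R272K and 21.8 with WT) and KRT7 (7.36 with R272K and 7.81 with WT). The 5 keratins made up 98.33 to 98.85% of the TPM of all 55 keratin genes in any library.

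RefSeq promoter entries (build GRCh38.p14) were held for 4 of the 10 genes, KRT8, DSP, DSG2 and DSC2, in 5 windows of 250 bases before a transcript start. The windows were searched on both strands for the SMAD box CAGAC, the palindromic SMAD element GTCTAGAC, the GC-rich SMAD element GGCGC, the AP-1 site TGANTCA, the grainyhead site AACCGGTT, the GC box GGGCGG and the E-box CANNTG. Matches of GGCGC and GGGCGG may share bases. KRT8 and DSC2 are shown because they had the largest differences among these 4 genes and because theirs are the windows with a SMAD box, in capitals as CAGAC or its complement GTCTG. The KRT8 window is chr12:52926470-52926719 on the minus strand, before a start that 1 of 17 GENCODE 29 transcripts of the gene uses within 50 bases. The DSC2 window is chr18:31102422-31102671 on the minus strand, where 1 of 3 transcripts starts within 50 bases.
KRT8: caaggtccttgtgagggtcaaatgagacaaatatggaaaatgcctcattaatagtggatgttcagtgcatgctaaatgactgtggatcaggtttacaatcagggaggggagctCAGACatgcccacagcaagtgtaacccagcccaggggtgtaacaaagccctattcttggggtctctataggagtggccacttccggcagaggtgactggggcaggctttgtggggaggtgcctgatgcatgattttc
DSC2: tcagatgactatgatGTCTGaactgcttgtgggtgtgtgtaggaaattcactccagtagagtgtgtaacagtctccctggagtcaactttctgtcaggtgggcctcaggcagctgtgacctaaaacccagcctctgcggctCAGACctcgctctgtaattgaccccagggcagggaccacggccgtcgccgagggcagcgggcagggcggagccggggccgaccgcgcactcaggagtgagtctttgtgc
The SMAD box began 137 bases before the start in KRT8, and 235 and 109 bases before it in DSC2. It was in 38.0% of the 35116 promoter windows of all genes. GGCGC, in 44.5% of all windows, had 5 matches in DSP, 2 in DSG2, 1 in the other DSC2 window and 0 in KRT8. GGGCGG, in 42.6% of all windows, had 7 matches in DSP, 2 in DSG2, 1 and 2 in the DSC2 windows and 0 in KRT8. CANNTG, in 61.8% of all windows, had 2 matches each in KRT8, DSP and DSG2, and 3 and 0 in the DSC2 windows. GTCTAGAC (0.182% of all windows), TGANTCA (6.57%) and AACCGGTT (0.117%) had 0 matches in the 5 windows. A match is a description of these letters and not evidence of binding.

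Other genes of filaments and cell contacts were taken from lists chosen with earlier results of these data known, and values are means of 3 libraries. Among 11 further desmosome genes 4 were tested and 0 called; the median log2 fold change was 0.07. JUP, plakoglobin, which links desmosomal cadherins to desmoplakin, stood at 224 CPM with R272K and 219 CPM with WT (adjusted p = 0.858), PKP4 at 105 CPM with R272K and 97.5 CPM with WT (adjusted p = 0.485) and KAZN at 8.20 CPM with R272K and 7.60 CPM with WT (adjusted p = 0.741). Without WT replicate 1 their log2 ratios were 0.04 for JUP, 0.10 for PKP4 and 0.06 for KAZN, none of them called. By unadjusted p under 0.05 and by DESeq2 and limma-voom the counts for these 4 were 0, 0 and 0. Of 48 stratified and hair keratins 6 were tested and 0 called, with 1 at an unadjusted p under 0.05, KRT10, and 0 by DESeq2 or limma-voom. KRT10, a type I keratin of stratified skin, stood at 26.7 CPM with R272K and 32.3 CPM with WT (log2 fold change -0.28, adjusted p = 0.237). WT replicate 1 was high for KRT10, at 37.4 CPM against 29.7 and 29.9 CPM in the other WT libraries, and without it the value was -0.16 (adjusted p = 0.332). KRT17 stood at 0.81 CPM with R272K and 1.15 CPM with WT (log2 fold change -0.52, adjusted p = 0.575; -0.20 without WT replicate 1), and KRT86 at 2.24 CPM with R272K and 1.81 CPM with WT (adjusted p = 0.605). KRT20 and KRT23, further simple or ductal keratins, had too few counts to be tested, 19 in all 6 libraries together.

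Plakins and hemidesmosome genes, which tie filaments to the basal membrane and the cytoskeleton, gave 0 calls among 9 tested (median log2 fold change 0.11). At an unadjusted p under 0.05 there were 2 of 9, beside 14.3% of all tested genes, and DESeq2 called 0 and limma-voom 0. ITGB4, the integrin chain of hemidesmosomes, stood at 40.3 CPM with R272K and 32.7 CPM with WT (0.30, adjusted p = 0.118; adjusted p = 0.0258 without WT replicate 1). Its partner ITGA6 stood at 584 CPM with R272K and 493 CPM with WT (0.24, adjusted p = 0.139; adjusted p = 0.00406 without WT replicate 1). DST, a long plakin gene, had 774, 733 and 784 CPM with R272K, against 464, 715 and 727 CPM with WT (0.27, adjusted p = 0.365), a difference that was 0.08 without WT replicate 1.

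Of 7 tested genes for other intermediate filaments 1 rose, NES, and 0 fell. NES encodes nestin, a filament protein of progenitor cells. It had 48.7, 47.6 and 42.9 CPM with R272K, against 33.7, 31.5 and 27.9 CPM with WT, with no overlap. The log2 fold change was 0.58 (95% interval 0.39 to 0.77, adjusted p = 0.00507), and 0.64 without WT replicate 1. The call was lost without R272K replicate 1 (0.54, adjusted p = 0.0617) or R272K replicate 2 (0.56, adjusted p = 0.0562). LMNB1, a nuclear lamin, stood at 154 CPM with R272K and 134 CPM with WT (0.20, adjusted p = 0.146; adjusted p = 0.013 without WT replicate 1), and SYNM, synemin, at 37.5 CPM with R272K and 39.96 CPM with WT (adjusted p = 0.633).

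Of 6 tested regulators of epithelial genes 1 rose and 0 fell. GRHL3, a grainyhead transcription factor of surface epithelia, had 36.7, 37.5 and 41.3 CPM with R272K, against 27.1, 28.5 and 28.4 CPM with WT (log2 fold change 0.46, 95% interval 0.29 to 0.63, adjusted p = 0.0116). Without WT replicate 1 the value was 0.44 (adjusted p = 0.000327). The GRHL3 call was lost without R272K replicate 1, 2 or 3 (0.50, 0.48 and 0.41, adjusted p = 0.0545, 0.0735 and 0.114) or WT replicate 2 (0.47, adjusted p = 0.0551). ELF3, an epithelial ETS factor, stood at 45.8 CPM with R272K and 36.5 CPM with WT (0.33, adjusted p = 0.0847; adjusted p = 0.00108 without WT replicate 1). KLF4, a Krüppel-like factor, stood at 39.7 CPM with R272K and 49.3 CPM with WT (-0.31, adjusted p = 0.0922; adjusted p = 0.00424 without WT replicate 1). Of 7 tested genes listed as keratin partners 0 were called, and DESeq2 and limma-voom called 0 and 0. At an unadjusted p under 0.05 there were 2, beside 14.3% of all tested genes. The list includes KRTCAP2, which is named for keratinocytes and not for keratin. The smallest p among them were those of KRTCAP2 (0.36, adjusted p = 0.266; 0.32 without WT replicate 1), EPPK1, the plakin epiplakin (0.37, adjusted p = 0.325; 0.21 without WT replicate 1, adjusted p = 0.516), and FAM83H, a keratin-binding protein (0.12, adjusted p = 0.551; 0.06 without WT replicate 1). Of 5 tested duct markers 1 was called higher, CDH1, and 0 lower, beside 0.685% of all tested genes called higher. DESeq2 called 2 of them, where it called 1.09% of genes higher, and limma-voom called 1. At an unadjusted p under 0.05 there were 3, beside 14.3% of all tested genes. CDH1, which encodes E-cadherin of adherens junctions, averaged 6.47 ± 0.313 CPM with R272K and 2.59 ± 0.49 CPM with WT (SD, n = 3 each). Its log2 fold change was 1.33 (adjusted p = 0.00174). CDH1 was called whichever library was left out (1.17 without WT replicate 1, adjusted p = 0.000105). SOX9 was not called on all 6 libraries (0.25, adjusted p = 0.0613) but was called without WT replicate 1 (0.23, adjusted p = 0.00038) and with the length trend removed (adjusted p = 0.00518). EPCAM was not called (0.39, adjusted p = 0.338; 0.37 without WT replicate 1, adjusted p = 0.361).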

How the data were processed

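Polyadenylated RNA of 6 libraries was sequenced, 3 with R272K and 3 with WT SMAD4. Per the submitters' processing notes, reads were handled with HTSeq 0.10.0, HISAT2 2.1.0, fastp 0.23.0 and SAMtools on GRCh38. Whole-number counts per gene and TPM values were deposited by the authors; both tables have 62710 lines, and lines repeating a symbol were used once, leaving 60835 symbols. TPM columns sum to 1296446 to 1472074 over all lines and to 1000000 over distinct symbols.

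Counts were tested with edgeR 4.0.16 (R 4.3.3; minimum count 10, minimum total 15, TMM scaling, robust quasi-likelihood test, R272K over WT), with Benjamini-Hochberg adjustment over all 15911 genes and calls below 0.05. SE is the log2 fold change divided by the root of F, and intervals are 95%. Only the main edgeR fit was tested on simulated data, with changes larger than those of the 10 genes. Levels between genes are compared in TPM only. Alternatives used DESeq2 1.42.0, limma 3.58.1 on voom weights or log2(TPM + 1), other scalings and filters, the replicate block, and a lowess length offset (span 0.3); the last with the block was added after seeing the data. Depth of 14776148 to 17706201 counts limits KRT7, with 43 to 94 counts.

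The genes and lists were chosen with earlier results of these data known. Besides the 10 genes, the text names the called genes of each list and the 3 with the smallest p, where given; KRT8 copies and ratios were picked after seeing values.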

Additional observations from a re-analysis of the deposited data

How the results depend on the processing

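The number of the 10 genes called higher, 0 on all 6 libraries, was 3 with no filter on low counts, 1 with DESeq2, 1 with limma on log2(TPM + 1), 1 on log2(TPM + 0.1), 3 with the length trend removed, and 0 to 4 when 1 library was left out, with 4 without WT replicate 1. With the replicate number as a block it was 1, KRT8 (adjusted p = 0.033), and 2 with the length trend removed as well. Same-numbered libraries did not deviate together (correlations -0.065, -0.00715 and -0.012), so the numbers are not taken to pair them. The number called lower was 0 throughout. Genes called in all, in either direction, were 193 on all 6 libraries. They became 474 with no filter, 279 with DESeq2 and 262 with the replicate block. With limma they were 104 on log2(TPM + 1), 101 on log2(TPM + 0.1) and 37 on log2(TPM + 1) with no filter. They were 619 with the length trend removed and 652 with the replicate block as well. When 1 library was left out they were 55 to 875, with 875 without WT replicate 1. The share of tested genes called higher was 0.685% on all 6 libraries. It was 1.09% with DESeq2, 2.94% without WT replicate 1 and 2.00% with the length trend removed. For the other alternatives that share was not counted. Other listed genes called, 3, became 6 with no filter, 0 on log2(TPM + 1) with no filter, 8 with the length trend removed, 9 with the block as well, and 1 to 9 when 1 library was left out. KRT8 lay between 0.26 and 0.42 (adjusted p 4.6e-11 to 0.323) and was called in 8 of 19 alternatives, PKP2 in 4, DSC2 in 3 and KRT18 in 1. KRT80, DSP, DSG2 and PKP3 kept a positive direction and were not called in any of the 19. KRT7 lay between -0.51 and 0.12 and KRT19 between -0.18 and 0.02 when 1 library was left out; both turned positive without WT replicate 1 (0.119 and 0.018), and KRT7 also without R272K replicate 1 or 3. The cause of these changes was not tested.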

Other observations

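VIM, which encodes the mesenchymal filament protein vimentin, served as a further level to set KRT8 against. The TPM ratio of KRT8 to VIM was 3.02, 3.08 and 3.19 with R272K, against 2.40, 2.53 and 2.39 with WT, with no overlap. Neither VIM nor KRT8 was called on all 6 libraries, and KRT8 alone averaged 3077 TPM with R272K and 2420 TPM with WT. The ratio therefore includes the KRT8 difference, and the part of VIM in it was not tested. No shift between epithelial and mesenchymal states is read from the ratio. The TPM ratio of DSP to JUP was 0.871, 0.794 and 0.764 with R272K, against 0.602, 0.780 and 0.781 with WT, and the groups overlapped. These ratios were chosen after their values were seen and were not tested.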
